A study of Mus musculus with 2 samples.

Results

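Melanocytes are set apart from other cells of the neural crest by a few transcription factors and the receptors that feed them, and 10 such genes were followed here in B16 cells, a pigmented mouse melanoma line. They were the transcription factor genes Mitf, Sox10, Pax3 and Tfap2a, the receptor genes Kit, Mc1r, Ednrb and Met, and Gpnmb and Bcan. They were taken by symbol, through the Ensembl identifiers of the deposited table, and 9 of the 10 had values among the 18220 genes analysed. Ednrb, the endothelin receptor type B gene, was not analysed here. All 9 averaged at least 1 CPM (reads scaled to library size) over both libraries, the minimum set for a measured gene, which 12243 genes met. Gpnmb, a transmembrane glycoprotein of melanosomes and lysosomes, and Bcan, a secreted chondroitin sulfate proteoglycan, are not signalling receptors in the usual sense, although they were grouped with them.

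RNA was sequenced from B16 cells treated with LY500307, also named erteberel, an agonist selective for estrogen receptor beta, and from control-treated B16 cells. Each group was 1 library of total RNA depleted of ribosomal RNA, and no source used here states whether it came from 1 culture or several, or the dose, the time and the content of the control treatment. With 1 library per group there is no replicate check and no test between treatments. Every interval below is an exact 95% interval that covers counting error only, and every difference describes these 2 libraries.

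MITF is the transcription factor at the centre of this lineage and switches on the genes of pigment synthesis and melanocyte survival. SOX10 and PAX3 act on the Mitf gene itself, and TFAP2A works beside MITF at pigment genes. MC1R, bound by melanocortin, raises cyclic AMP and through CREB also acts on Mitf, while KIT and MET, receptors of stem cell factor and of hepatocyte growth factor, signal through RAS and PI3 kinase.

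Reads per library, worked back from the deposited values, came to 14698853 for LY500307 and 16704950 for the control. Of the 12243 measured genes, 46 differed at least 2-fold on the scale log2(CPM + 1), which is 0.376%. They were 31 higher (0.253%) and 15 lower (0.123%) in the LY500307 library, and the median log2 fold over all of them was -0.01. The cells carried the markers of pigment cells. All 7 melanocyte markers were measured, with a sum of 25944 CPM in the LY500307 library and 27045 CPM in the control library. Of 12 leukocyte markers 1 was measured, with sums over the markers in the table of 1.96 CPM in the LY500307 library and 1.93 CPM in the control library. Of 7 fibroblast markers 3 were measured (6.96 CPM in the LY500307 and 7.53 CPM in the control library), and of 6 endothelium markers only Vwf (1.28 CPM in the LY500307 and 2.65 CPM in the control library). The keratinocyte markers were not analysed here. Markers of Schwann cells and glia, which share SOX10 with melanocytes, were measured for 7 of 9, with sums of 258 CPM in the LY500307 library and 244 CPM in the control library. The largest part was Erbb3, at 125 CPM with LY500307 and 122 CPM in the control. S100b came next, at 50.7 CPM with LY500307 and 52.2 CPM in the control. For both, the interval of the ratio included 1.

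The bases before the transcript starts of the members were searched for motifs of MITF, SOX factors and CREB, in 12 windows of 8 members. The 4 windows that held a match are shown, and were chosen for that. Each line gives the 250 bases before a start on the plus strand, 5′ to 3′, from RefSeq on build GRCm38.p6. The deposited values were made on mm9, so these positions belong to the sequences and not to the reads. Capitals mark 6 or 8 letter matches, on either strand, to CATGTG (the core of the M-box bound by MITF), CACGTG (an E-box), ACAAAG (a core of SOX sites) or TGACGTCA (the cyclic AMP response element, CRE). The Mitf line, at chr6:97991533-97991782, precedes the most downstream of 3 listed Mitf starts, the one of the melanocyte form. The Mc1r window is chr8:123406832-123407081, the Met window chr6:17463707-17463956 and the Gpnmb window chr6:49036268-49036517.
Mitf: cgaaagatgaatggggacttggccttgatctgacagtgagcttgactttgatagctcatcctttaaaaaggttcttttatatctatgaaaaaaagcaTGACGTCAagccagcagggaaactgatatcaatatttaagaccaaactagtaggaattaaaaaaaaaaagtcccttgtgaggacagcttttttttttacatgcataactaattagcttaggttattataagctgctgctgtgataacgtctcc
Mc1r: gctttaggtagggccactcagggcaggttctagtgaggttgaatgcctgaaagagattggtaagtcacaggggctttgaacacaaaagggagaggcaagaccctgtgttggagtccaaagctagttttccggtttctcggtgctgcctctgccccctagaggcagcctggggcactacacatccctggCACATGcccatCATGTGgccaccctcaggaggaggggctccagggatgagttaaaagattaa
Met: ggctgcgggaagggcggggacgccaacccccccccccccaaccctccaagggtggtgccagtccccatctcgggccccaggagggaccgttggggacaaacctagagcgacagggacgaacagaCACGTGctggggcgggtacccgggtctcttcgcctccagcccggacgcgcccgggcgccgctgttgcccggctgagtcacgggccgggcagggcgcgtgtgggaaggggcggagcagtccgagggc
Gpnmb: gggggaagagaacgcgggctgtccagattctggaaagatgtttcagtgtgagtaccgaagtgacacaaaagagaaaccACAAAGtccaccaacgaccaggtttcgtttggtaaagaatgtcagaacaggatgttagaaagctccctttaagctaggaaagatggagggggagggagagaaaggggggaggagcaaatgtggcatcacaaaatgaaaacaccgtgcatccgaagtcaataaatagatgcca

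The Mitf window held the CRE, starting 153 bases before the transcript start, a match found in 1.55% of 32851 windows of this length in the table. Mc1r had 2 M-box cores, starting 62 and 51 bases before its start, where 12.3% of windows held at least 1. Met had the E-box, 126 bases before its start (6.02% of windows), and Gpnmb a SOX core, 172 bases before (16.5%). The other 8 windows, those of Bcan and Ednrb, both windows of Kit, which overlap, both of Tfap2a and the other two Mitf starts, held no match to these 4 motifs. Each share above is for 1 motif alone, although 4 were searched. The share of all windows with a match to any of the 4 was not computed, so the 4 of 12 have no background. The matches are letters in a window and say nothing of binding in B16 cells.

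The 9 genes spanned a wide range of expression, and their order was the same in both libraries. Levels of different genes are compared per kilobase of merged exons. Gpnmb stood highest at 838 CPM per kb in the LY500307 library and 769 CPM per kb in the control library. Met followed at 204.5 CPM per kb in the LY500307 library and 229 in the control library, and Sox10 at 192 in the LY500307 library and 211 in the control library. The lineage factor Mitf itself was far lower, at 48.0 CPM per kb in the LY500307 library and 51.8 in the control library. In CPM per kb, Mc1r had 31.2 in the LY500307 library and 33.6 in the control library, and Pax3 27.8 with LY500307 and 23.7 in the control. Tfap2a had 12.9 CPM per kb with LY500307 and 13.5 in the control, and Bcan 3.74 with LY500307 and 3.57 in the control. Kit was lowest, at 0.114 CPM per kb in the LY500307 library and 0.189 in the control library. Each gene differed from its neighbour in this order beyond counting error in both libraries. The intervals leave out error in the exon lengths, which merge all annotated transcripts of a gene, so small steps are uncertain. The closest neighbours were Met over Sox10, by 1.07-fold (1.04 to 1.09) in the LY500307 library and 1.08-fold (1.06 to 1.11) in the control library. The step between Mc1r and Pax3 was 1.12-fold (1.05 to 1.19) in the LY500307 library and 1.41-fold (1.332 to 1.4997) in the control library.

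**Figure D1:**
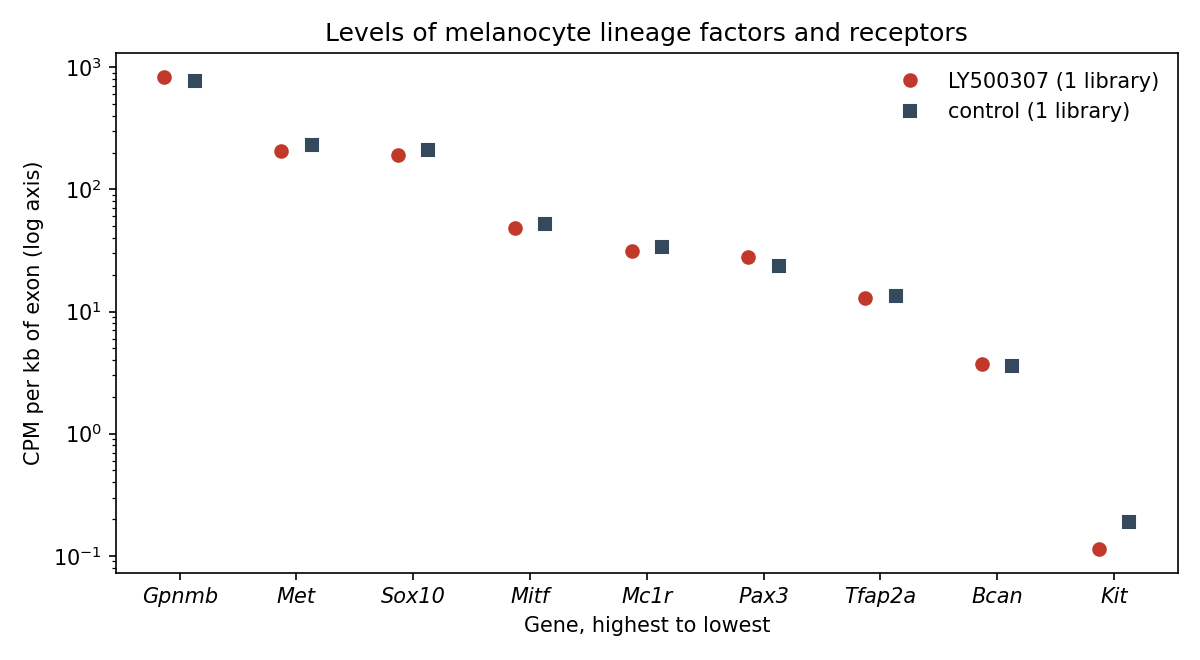
Level of each of the 9 genes in CPM per kilobase of exon (log axis), with the LY500307 library as circles and the control library as squares, 1 library each. The order is the same in both, from Gpnmb, at 838 CPM per kb with LY500307 and 769 in the control, down to Kit, at 0.114 with LY500307 and 0.189 in the control.

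None of the 9 genes reached a 2-fold difference, against 0.376% of all measured genes, and none reached 1.5-fold, against 3.63%, on the scale log2(CPM + 1). The plain ratio of Kit, on few reads, was 0.601, past 1.5-fold. Their median log2 fold was -0.10, beside -0.01 for all measured genes. Pax3, Gpnmb and Bcan were the 3 with a positive log2 fold, and Pax3 had the largest positive value. The interval of the ratio of reads lay off 1 for 6 of the 9, above it for 2 and below it for 4, where 36.4% of all measured genes had an interval off 1. Abundant genes have narrow intervals. Of the 2371 genes that averaged 100 CPM or more, 58.1% had an interval off 1, 21.6% above and 36.6% below. The 6 members in that range were the same 6. In bulk RNA, fewer cells that make a transcript and less of it per cell cannot be told apart, and this holds for each value below.

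**Figure D2:**
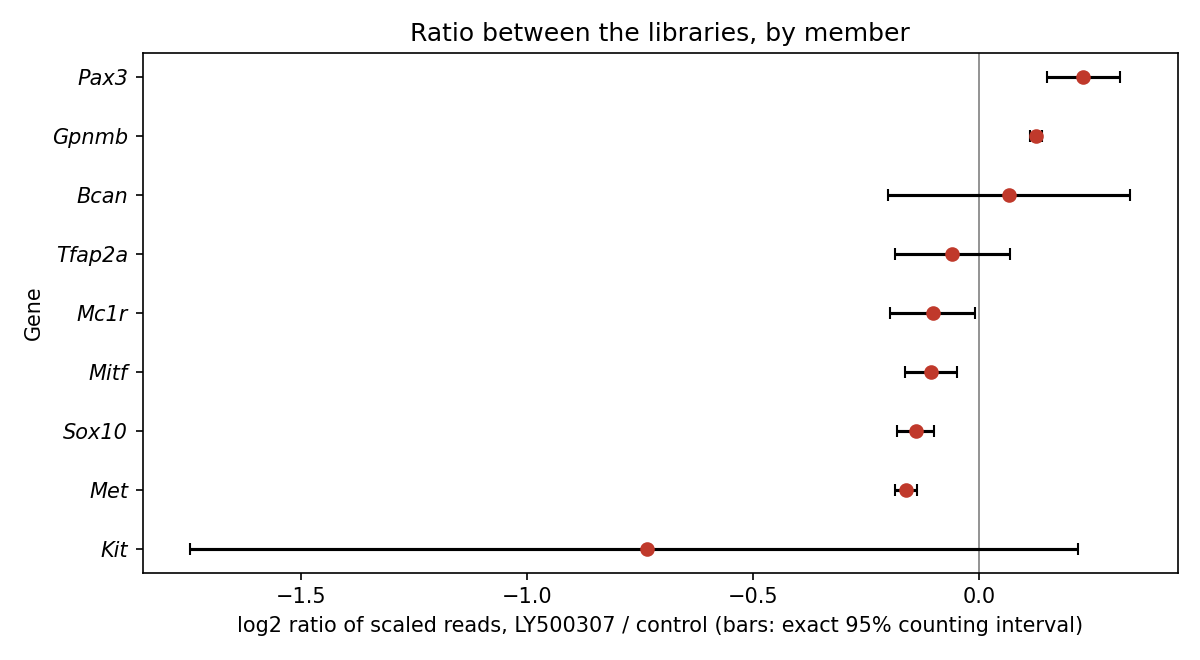
Ratio of scaled reads between the LY500307 and control libraries for each of the 9 genes, as log2, with exact 95% counting intervals as bars. Pax3 at 0.23 and Gpnmb at 0.13 lie above 0, and Met at -0.16, Sox10 at -0.14, Mitf at -0.11 and Mc1r at -0.10 lie below it.

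Mitf (ENSMUSG00000035158) had 4406 reads and 298 CPM in the LY500307 library, against 5322 reads and 321 CPM in the control library. The ratio was 0.928 (0.892 to 0.966), a log2 fold of -0.11. It was slightly lower in the LY500307 library, by more than counting error, and 56.7% of all measured genes had a log2 fold of at least that size in either direction. Among the 1196 genes whose mean lay within 2-fold of that of Mitf, the share was 42.1%. The deposited values are per gene, so the start shown above and the other Mitf starts could not be told apart.

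Sox10 (ENSMUSG00000033006), which also drives glial genes, was at 585 CPM (8651 reads) in the LY500307 library and 644 CPM (10689 reads) in the control library. Its ratio was 0.907 (0.882 to 0.934), with a log2 fold of -0.14. Among the 469 genes whose mean lay within 2-fold of that of Sox10, 28.6% had a log2 fold as large in size.

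Pax3 (ENSMUSG00000004872), a paired-box factor of neural crest and muscle precursors, went the other way. It had 2550 reads and 172 CPM in the LY500307 library, against 2438 reads and 147 CPM in the control library. The larger read number stood in the library with fewer reads in all. The ratio was 1.17 (1.11 to 1.24) and the log2 fold 0.23. Among genes averaging 100 CPM or more, 3.25% had a higher log2 fold, and 11.0% of the 2561 genes within 2-fold of its mean had one as large in size in either direction.

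Tfap2a (ENSMUSG00000021359), an AP-2 factor of neural crest and epidermis, was at 63.4 CPM (938 reads) in the LY500307 library and 66.1 CPM (1096 reads) in the control library. Its ratio was 0.959 (0.878 to 1.05), so at this depth no difference could be detected. Antisense genes overlap Tfap2a in GENCODE M21, and no source used here states whether counting took account of strand. The only one of them in the table, Gm26688, had 46 reads in each library.

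**Figure D3:**
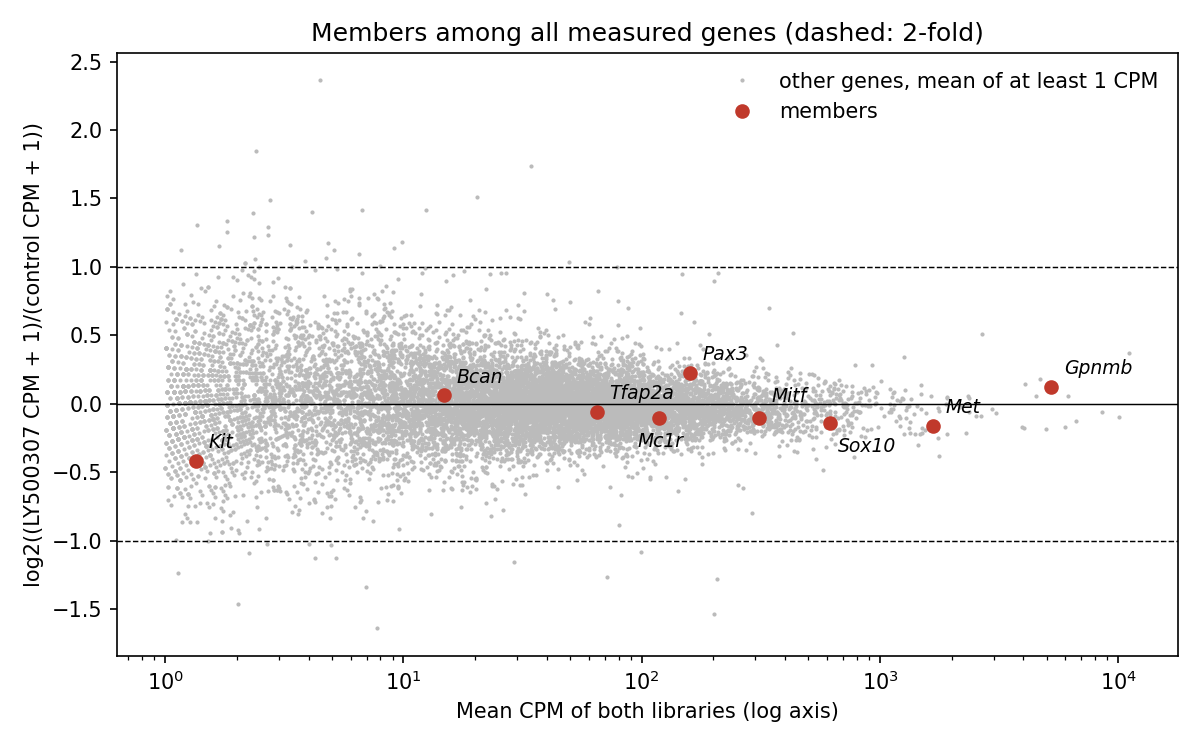
Log2 fold between the LY500307 and control libraries, log2((LY500307 CPM + 1)/(control CPM + 1)), against the mean CPM of both (log axis) for all 12243 measured genes in grey and the 9 members in red. The members lie inside the 2-fold lines, between Kit at -0.42 and Pax3 at 0.23.

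Among the receptors, Met (ENSMUSG00000009376) had by far the most reads. It was at 1571 CPM (23245 reads) in the LY500307 library and 1757 CPM (29157 reads) in the control library, and stood at rank 33 of all genes by CPM in both. Per kilobase of exon its rank was 190 with LY500307 and 164 in the control. Its ratio was 0.894 (0.878 to 0.909), the lowest of the members with intervals off 1, and the log2 fold was -0.16. Among 88 genes with a mean within 2-fold, 28.4% had a log2 fold as large in size.

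Mc1r (ENSMUSG00000074037), the melanocortin receptor gene, was at 114 CPM (1682 reads) in the LY500307 library and 122 CPM (2026 reads) in the control library. Its ratio was 0.931 (0.872 to 0.993). That interval only just missed 1, and Mc1r was not called under each of 4 other settings. The interval included 1 with scaling by library totals, with scaling by the upper quartile and at 99%. The exact binomial test with Benjamini-Hochberg adjustment, which called 26% of all measured genes, did not call Mc1r. Gm38092, a transcript model on the opposite strand, overlaps Mc1r in GENCODE M21 and was not analysed here, so reads of the pair could not be told apart without knowledge of strand.

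Kit (ENSMUSG00000005672), the stem cell factor receptor gene, was near the lower limit of these data. It had 15 reads in the LY500307 library, or 1.01 CPM, and 28 reads in the control library, or 1.69 CPM. The ratio was 0.601 with an interval of 0.298 to 1.16, so these reads are too few to detect a difference. The log2 fold of -0.42 on the log2(CPM + 1) scale understates that of the plain ratio, -0.74. Both the receptor and its ligand were low, since Kitl, the stem cell factor gene, had 15 reads in the LY500307 library and 22 in the control library.

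Gpnmb (ENSMUSG00000029816), which codes for the glycoprotein of melanosomes and lysosomes, was among the most abundant transcripts of the cells. It had 80817 reads (0.550% of the library, 5461 CPM) with LY500307 and 83070 reads (0.497%, 5007 CPM) in the control. By CPM it ranked 7 among all genes in the LY500307 library and 8 in the control library. Per kilobase of exon it ranked 32 with LY500307 and 34 in the control. The ratio was 1.09 (1.08 to 1.10) and the log2 fold 0.13. The interval is narrow because of the reads behind it, and 51.0% of all measured genes had a log2 fold at least as large in size. Among the 16 genes with a mean within 2-fold, the share was 50%.

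Bcan (ENSMUSG00000004892), the brevican gene, known from the matrix of the brain, was expressed at a low level. It had 225 reads (15.2 CPM) in the LY500307 library and 241 reads (14.5 CPM) in the control library. Its ratio was 1.05 (0.869 to 1.26), so no difference could be detected at this depth.

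Ratios between members within a library do not depend on how the libraries were scaled. Of 36 pairs, 12 had a ratio that differed between the libraries by an exact interval off 1, with no adjustment for the number of pairs. Pax3 was in 7 of these 12, and Gpnmb was the higher gene in the other 5. Pairs that share a gene are not independent, so these counts largely restate the single ratios of Pax3 and Gpnmb. The share over pairs of other genes was not computed, so the 12 of 36 have no background. Relative to Mitf, Pax3 had 0.579 reads per read of Mitf in the LY500307 library and 0.458 in the control library, a 1.26-fold difference (1.18 to 1.35). Relative to Sox10 the difference was 1.29-fold (1.21 to 1.38), and relative to Met 1.31-fold (1.24 to 1.39). The ratio of Pax3 to Kit had an interval of 1.005 to 3.94, on the few reads of Kit, and that of Pax3 to Bcan included 1.

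Gpnmb was higher relative to Mitf, Sox10, Tfap2a, Mc1r and Met, by 1.14-fold to 1.22-fold. Its intervals against Bcan (0.865 to 1.26) and Kit (0.937 to 3.66) included 1. Relative to Pax3 it was lower, with Pax3 over Gpnmb at 1.08-fold (1.02 to 1.14). With Mitf as the base, Gpnmb had 18.3 reads per read in the LY500307 library and 15.6 in the control library (1.18-fold, 1.13 to 1.22). The 5 genes Mitf, Sox10, Tfap2a, Mc1r and Met, a set formed after their values were seen, kept closer ratios. In their 10 pairs the ratio moved by 1.003-fold to 1.07-fold, and no interval lay off 1. Between Mitf and Mc1r it was 1.003-fold (0.929 to 1.08). Because the set was formed on these values, their closeness is not a separate result. Every pair of Bcan or Kit with these 5 genes also had an interval that included 1.

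Genes around the members were followed in 9 lists, with the members left out of each, and some genes are in more than 1 list. Read against all measured genes, 17.2% had an interval above 1 and 19.2% below. Of 13 measured partner transcription factors, 5 had an interval above 1, 2 below, and none differed 2-fold. Their median log2 fold was 0.12. The SOX factor gene Sox5 was at 44.0 CPM in the LY500307 library and 30.9 CPM in the control library (log2 fold 0.50). Sox9 was at 28.4 CPM with LY500307 and 20.6 CPM in the control (0.45), and Tcf7l2, a factor of WNT signalling, at 11.4 CPM with LY500307 and 15.7 CPM in the control (-0.43).

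MITF targets hold the pigment genes and genes of survival and the cell cycle. Of 22 measured targets, 7 had an interval above 1 and 12 below, with a median log2 fold of -0.06. Their median level was high, at 316 CPM in the LY500307 library and 327 CPM in the control library. Among all genes averaging 100 CPM or more, 21.6% had an interval above 1 and 36.6% below. Only 1 target was at least 1.5-fold higher, against 2.25% of all measured genes. That gene was Cdkn1a, which encodes the cell cycle inhibitor p21 and is also a target of p53, at 195 CPM in the LY500307 library and 101 CPM in the control library (log2 fold 0.95). Bcl2, a survival gene, was at 18.7 CPM in the LY500307 library and 22.7 CPM in the control library (-0.27), and Mlph, of melanosome transport, at 568 CPM with LY500307 and 680.3 CPM in the control (-0.26).

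**Figure D4:**
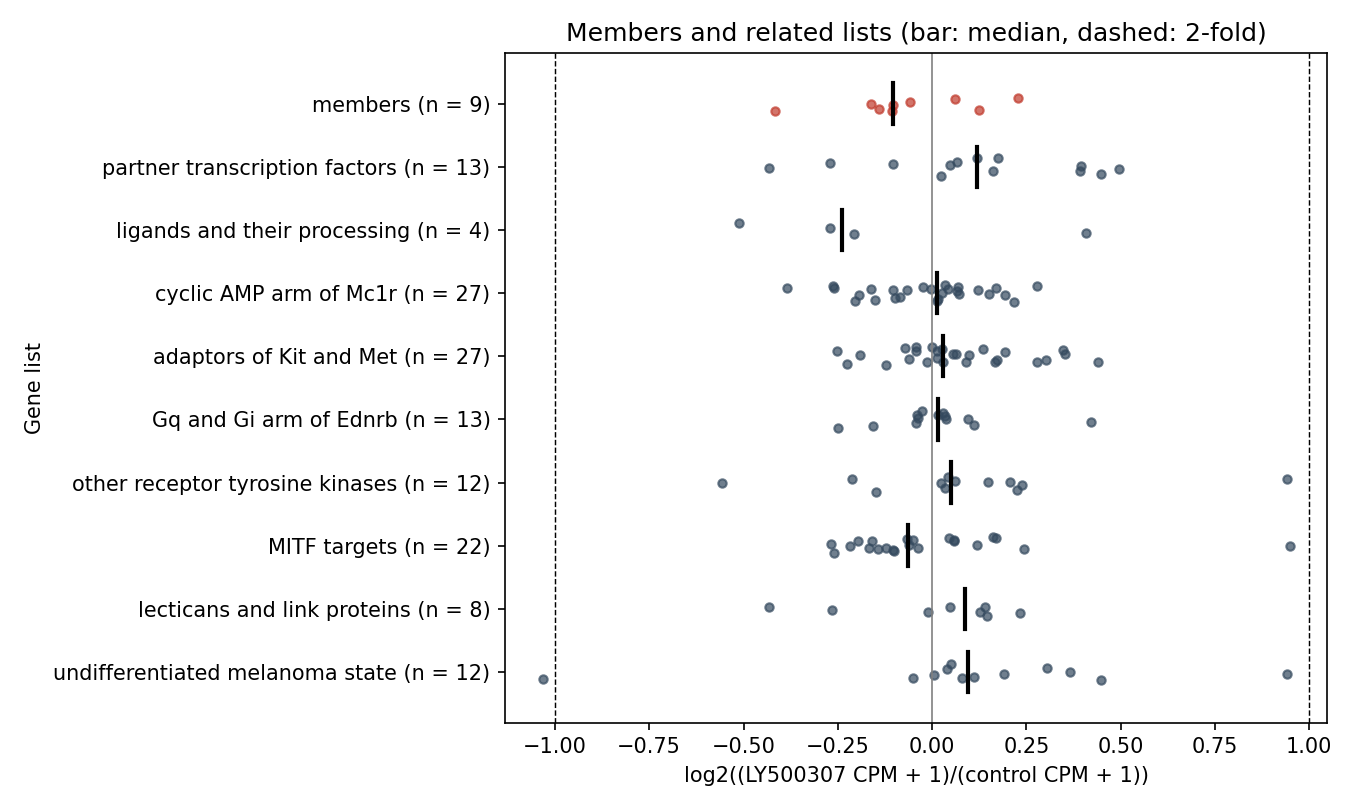
Log2 fold between the LY500307 and control libraries for the 9 members (red) and for each measured gene of 9 related lists (blue), with black bars at the medians and dashed lines at 2-fold. The member median is -0.10, and Loxl2, at -1.03 in the list of the undifferentiated state, is the gene past a dashed line.

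Among other receptor tyrosine kinase genes Axl had the largest log2 fold in size. Of 12 measured, 1 had an interval above 1 and 2 below, and the median log2 fold was 0.05. Axl, the receptor of GAS6, had 320 reads (21.6 CPM) in the LY500307 library and 179 reads (10.8 CPM) in the control library, a ratio of 2.004 (1.66 to 2.42). Fgfr3 was at 4.39 CPM in the LY500307 library and 6.93 CPM in the control library (ratio 0.634, 0.460 to 0.866), and Epha2 at 3.38 CPM with LY500307 and 2.71 CPM in the control, with an interval that included 1 (0.816 to 1.91). Low Mitf and high Axl are known to mark an undifferentiated state of human melanoma cells. Of 12 measured genes of that list, 4 had an interval above 1 and 1 below, with a median log2 fold of 0.09. Beside Axl and Sox9 the rule for names took Loxl2, a lysyl oxidase, at 2.91 CPM in the LY500307 library and 6.99 CPM in the control library (log2 fold -1.03). Loxl2 has a near-identical copy in the table, and its share of the reads is uncertain.

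Of the ligand genes, Kitl and Pomc had values, both low, and the endothelin genes, Hgf, Wnt3a and the agouti gene were not analysed here. In the list of ligands and their processing 4 of 16 were measured, with 0 intervals above 1 and 1 below and a median log2 fold of -0.24. Ece2, an enzyme that processes endothelin precursors, was at 7.57 CPM in the LY500307 library and 11.2 CPM in the control library (ratio 0.675, 0.529 to 0.858), and the related Ece1 at 5.20 CPM with LY500307 and 3.68 CPM in the control (1.42, 0.998 to 2.01). Pomc, the precursor gene of melanocortin, had 13 reads in the LY500307 library and 21 in the control library.

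In the signalling arms under the receptors no measured gene differed 1.5-fold on the scale log2(CPM + 1), against 3.63% of all measured genes. The cyclic AMP arm of Mc1r had 27 measured genes, 2 with an interval above 1 and 3 below, and a median log2 fold of 0.01. Prkar2b, a regulatory subunit of protein kinase A, was at 55.5 CPM in the LY500307 library and 72.8 CPM in the control library (log2 fold -0.38), and Mgrn1, a ubiquitin ligase known in mouse for its effect on coat colour, at 206 CPM with LY500307 and 247 CPM in the control (-0.26). Sik1, a kinase that restrains CREB coactivators, had a log2 fold of 0.28 with a ratio interval that included 1 (0.973 to 1.58).

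The adaptors of Kit and Met had 9 of 27 intervals above 1 and 4 below, against 17.2% and 19.2% of all measured genes. Their median log2 fold was 0.03. Sh2b3, an adaptor that restrains KIT signalling in blood cells, was at 85.7 CPM in the LY500307 library and 62.9 CPM in the control library (log2 fold 0.44). The SRC family kinase gene Yes1 was at 30.7 CPM in the LY500307 library and 23.8 CPM in the control library, and the ubiquitin ligase gene Cblb at 17.3 CPM with LY500307 and 13.4 CPM in the control, both with a log2 fold of 0.35. The Gq and Gi arm of the endothelin receptor had 13 measured genes, 2 with intervals above 1 and 2 below, and a median of 0.02. Among them Itpr2, a calcium channel of the endoplasmic reticulum, was at 26.0 CPM in the LY500307 library and 19.2 CPM in the control library (0.42), the kinase gene Prkce at 37.4 CPM with LY500307 and 44.6 CPM in the control (-0.25), and the G protein gene Gnaq at 66.2 CPM with LY500307 and 74.0 CPM in the control (-0.16).

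Relatives of brevican were mostly low. Of 8 measured lecticans, link proteins and their partners, 2 had an interval above 1 and none below, with a median log2 fold of 0.09. Adamts1, a protease that cuts such proteoglycans, was at 167 CPM in the LY500307 library and 142 CPM in the control library (ratio 1.18, 1.11 to 1.24). Cspg5 had 16 reads in the LY500307 library and 30 in the control library, Has3 had 22 with LY500307 and 33 in the control, and neither pair of reads is enough to detect a difference. Of the genes named from the lists, Sh2b3, Yes1, Mgrn1 and Has3 overlap exons of a gene on the opposite strand that is also in the table. Bcl2, Cdkn1a, Fgfr3, Loxl2 and Sox5 overlap one that is not. Ece2, Prkce and also Loxl2 overlap exons of another gene model of their own strand. The values of all these genes are uncertain to that extent.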

How the data were processed

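RNA of B16 cells was measured in 2 libraries, 1 LY500307-treated and 1 control-treated, named by their labels. Trizol extraction, depletion of ribosomal RNA and stranded library preparation are per the labels' protocols, and CASAVA 1.8, Bowtie2 and mm9 per the submitters' processing notes. The counter, the annotation and the scaling are not named in any source used here. Each deposited value is a signal for 1 gene and behaves as reads multiplied by 1 factor per library. Dividing by that factor gave a whole number within 1% of a read for 99.7% of non-zero values in each library, and no value lay over 0.143 of a read away. A read was worth 0.0676 CPM in the LY500307 and 0.0603 CPM in the control library, as values over the mean of both totals. Symbols were found for 18177 of 18224 identifiers, and entries that share one were summed. Reads were not tied to single molecules, so intervals cover counting error only.

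The measure was log2((LY500307 CPM + 1)/(control CPM + 1)) at a mean of at least 1 CPM, counted past 2-fold. Intervals of ratios are exact (Clopper-Pearson, or conditional odds ratios for pairs of genes). Members and lists were chosen with earlier results of these data known, so counts over them are a description. All members were named, and of each list the 3 largest absolute log2 folds. A glial marker is not reported here and was left out of its list. With 2 libraries no gene could be named for a similar pattern. Exon lengths and overlaps came from GENCODE M21 (GRCm38), promoters from RefSeq, for 8 of the 10 members. Near-identical copies were sought with blastn 2.17.0 for members and named genes. Calculations were checked on simulated data. Alternatives were other pseudocounts, minimums, scalings, thresholds and interval rules. Software was scipy 1.17.1, numpy 2.4.6, matplotlib 3.10.9 and pandas 2.3.3 under Python 3.11.15.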

Additional observations from a re-analysis of the deposited data

How the results depend on the processing

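No member passed 2-fold under any alternative run (3 pseudocounts, 2 expression minimums, 3 scalings), and none passed 1.5-fold at a pseudocount of 1, although Kit is past it at -0.68 with a pseudocount of 0.1. Each member's log2 fold kept its sign where it was measured; Kit was not at a minimum of 5 CPM. Kit ranged from -0.68 to -0.15 over all alternatives, both ends set by the pseudocount, Pax3 from 0.22 to 0.25 and Mitf from -0.11 to -0.09, where the ends of 0.25 and -0.09 came from scaling by library totals. Gpnmb moved beyond its counting interval to 0.14 when scaled by library totals or the upper quartile. The 6 members called by an interval off 1 became 5 called under each of 4 settings, among them the adjusted exact binomial test. The member lost was Mc1r. The exact binomial test of reads, which compares libraries and not treatments, called 3189 of all measured genes (26%). The counts past 2-fold over all genes, 31 higher and 15 lower in the LY500307 library, depended on the treatment of low values. The counts higher and lower were 109 and 71 with a pseudocount of 0.1, 58 and 32 with 0.5, 4 and 6 with 5, 10 and 8 at a minimum of 5 CPM, and 275 and 170 at 1.5-fold. No paired analysis was possible because each group is 1 library. A count of 0 allows up to 3 reads, or 0.203 CPM in the LY500307 library and 0.181 CPM in the control library.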

Other observations

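Markers of Schwann cells and other glia, which share SOX10 with melanocytes, were also read in these pigment cells. Of 7 measured, 3 had an interval above 1 and 1 below, where 17.2% of all measured genes lay above and 19.2% below. Their median log2 fold was 0.05, beside -0.01 for all measured genes. Fabp7, a fatty acid binding protein of radial glia, was at 29.7 CPM in the LY500307 library and 21.8 CPM in the control library (ratio 1.36, 1.18 to 1.57). The myelin enzyme gene Cnp was at 17.5 CPM in the LY500307 library and 13.3 CPM in the control library (1.32, 1.10 to 1.59). Mbp, the myelin basic protein gene, was lower, at 8.45 CPM in the LY500307 library and 12.4 CPM in the control library (0.680, 0.540 to 0.854). The Schwann cell factor gene Egr2 had 0 reads in the LY500307 library and 3 in the control library. The part of these genes in the values of Sox10 was not tested.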
